A study of Homo sapiens with 16 samples.

Results

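H3K27ac, the histone acetylation mark of active promoters and enhancers, was followed at 10 genes that code for the adaptors, ligases and kinases next to the receptor Fn14. They were TRAF1, TRAF2, TRAF3, TRAF5, TRAF6, BIRC2, BIRC3, MAP3K14, CHUK and IKBKB, taken by name as genes of Fn14 signalling from the 20020 protein-coding genes of GENCODE 44. Each gene was read in 2 windows, one reaching 2 kb to either side of its start site and one spanning the gene body and 50 kb on either side, here called its locus. In each window the peaks touching it were counted and the bases under peaks inside it were summed. The highest fold enrichment of the immunoprecipitate over input among those peaks was also taken. That value belongs to the whole peak, which can reach beyond the window.

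Fn14, encoded by TNFRSF12A, is the receptor for the cytokine TWEAK. It has no enzymatic activity and signals by recruiting TRAF adaptors to its cytoplasmic tail. In resting cells TRAF2 and TRAF3 hold the ubiquitin ligases cIAP1 (BIRC2) and cIAP2 (BIRC3) close to the kinase NIK (MAP3K14), which is therefore degraded as fast as it is made. When a receptor draws the ligases away, NIK accumulates and phosphorylates IKKα (CHUK), and the NF-κB2 precursor p100 is processed to p52. IKKβ (IKBKB) instead drives the canonical branch by phosphorylating IκB, and TRAF6 couples Toll-like and interleukin-1 receptors to that branch. TRAF1 and BIRC3 are known both as components and as transcriptional targets of NF-κB signalling. The measurements are of chromatin, and neither the RNA nor the protein of these genes was measured in the files used here.

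The 16 peak lists came from MDA-MB-231 and Hs578T, human breast cancer cell lines of the triple-negative class (lacking oestrogen receptor, progesterone receptor and HER2). In each line, control cells and Fn14 KO cells were left untreated or received 48 h of recombinant TWEAK (10 ng/ml, renewed once at 24 h), and every culture had been starved for 8 h. This gave 8 groups of 2 lists. The Fn14 KO cells were made with CRISPR using 2 different guides, and the study describes genotyping of CRISPR clones without stating how many clones each line came from. The study describes its cell line immunoprecipitations as biological replicates, but the labels tie no list to a separate culture, so p-values measure the spread between these lists. Each list held between 39544 and 47197 peaks covering 64.2 to 88.9 Mb, and read depth was not known. Peaks stood at the start sites of VIM, AXL, CD44, CAV1 and FOSL1, markers of mesenchymal-type lines, in 16 of 16 lists. ESR1, PGR and the leukocyte genes PTPRC and CD3E had none in any list, while the luminal genes GATA3, FOXA1 and ERBB3 had one in 16, 2 and 4 lists. TNFRSF12A, the targeted gene, had a start-site peak in 16 of 16 lists. It stood at 32.6 to 38.2-fold over input in the 8 control lists and 16.2 to 22.3-fold in the 8 Fn14 KO lists. Control and Fn14 KO lists did not overlap in either line, and the share of all genes separated in this way was not counted. A peak does not show whether the coding sequence was disrupted. In untreated MDA-MB-231 the fold enrichments of the Fn14 KO lists were lower than those of the controls across the genome, with a median log2 difference of -0.29 over all genes tested, against 0.06 in Hs578T.

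The 10 genes lie on 7 chromosomes, and all had a start-site peak in all 16 lists, so all 10 passed the filter of a peak in at least 2 lists. In hg38, TRAF1 spans chr9:120902393-120929173 on the minus strand and TRAF2 chr9:136881912-136926607 on the plus strand. BIRC3 (chr11:102317484-102339403) and BIRC2 (chr11:102347211-102378670) are neighbours on the plus strand with 7.81 kb between them, and their loci share 92.2 kb. TRAF3 lies at chr14:102777449-102911500 on the plus strand and TRAF6 at chr11:36483769-36510272 on the minus strand. MAP3K14 covers chr17:45263119-45317029 and CHUK chr10:100188300-100229596, both on the minus strand. TRAF5 (chr1:211326615-211374946) and IKBKB (chr8:42271302-42332460) are on the plus strand.

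The promoters of BIRC3 and TRAF3 are shown because, among the 9 members with an entry searched, they were the only ones with a match to the NF-κB consensus, and both gained acetylation with TWEAK. The windows are the 250 bases before the RefSeq start (GRCh38.p14, plus strand, chr11:102317234-102317483 and chr14:102777199-102777448), with the matches in capitals.

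BIRC3: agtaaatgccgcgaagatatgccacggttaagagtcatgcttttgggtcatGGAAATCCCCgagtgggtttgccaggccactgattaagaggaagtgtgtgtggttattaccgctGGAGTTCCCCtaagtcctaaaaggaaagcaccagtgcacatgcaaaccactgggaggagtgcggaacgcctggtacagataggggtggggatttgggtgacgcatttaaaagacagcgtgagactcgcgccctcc
TRAF3: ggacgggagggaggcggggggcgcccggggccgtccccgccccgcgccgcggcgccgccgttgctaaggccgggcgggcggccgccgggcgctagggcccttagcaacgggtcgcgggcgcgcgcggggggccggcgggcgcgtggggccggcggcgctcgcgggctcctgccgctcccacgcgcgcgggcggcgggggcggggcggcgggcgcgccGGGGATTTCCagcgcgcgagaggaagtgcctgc

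In BIRC3 the matches begin 199 and 135 bases before the start, and in TRAF3 the single match begins 33 bases before it. The consensus, searched on both strands, was held by 5.83% of the 21423 protein-coding promoters in the RefSeq table. No promoter window of the other members with an entry (TRAF1, TRAF2, TRAF5, TRAF6, BIRC2, MAP3K14 and CHUK) held one. Of these, TRAF1, TRAF2 and BIRC2 also gained start-site acetylation with TWEAK, and TRAF5, TRAF6, MAP3K14 and CHUK gave no call there. Whether a match goes with a gain was not tested. None of the members' windows held the AP-1 motif TGANTCA, present in 5.37% of all promoters. The RefSeq start of TRAF2 at position 136886516 is 4.6 kb inside the GENCODE gene, so its window is not the one measured here.

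The second pair shows where peaks appeared that were absent without TWEAK. Both regions lie beyond the 3′ end of TRAF2, in no protein-coding gene, and were called in all 4 TWEAK lists of control cells and in none of their 4 untreated lists. The central 300 bases are printed from the plus strand of hg38 (chr9:136932119-136932418 and chr9:136934565-136934864), with an NF-κB match in capitals.

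TRAF2 region 1: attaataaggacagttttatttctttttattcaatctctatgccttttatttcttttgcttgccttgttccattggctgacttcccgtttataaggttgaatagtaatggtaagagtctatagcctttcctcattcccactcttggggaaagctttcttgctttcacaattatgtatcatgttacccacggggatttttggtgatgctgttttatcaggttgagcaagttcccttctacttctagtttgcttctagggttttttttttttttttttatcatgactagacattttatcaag
TRAF2 region 2: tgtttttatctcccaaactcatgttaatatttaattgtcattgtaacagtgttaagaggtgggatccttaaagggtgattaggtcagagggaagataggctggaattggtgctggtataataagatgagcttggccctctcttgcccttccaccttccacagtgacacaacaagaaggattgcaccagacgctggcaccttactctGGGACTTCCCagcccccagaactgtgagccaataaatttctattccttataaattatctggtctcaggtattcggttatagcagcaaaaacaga

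Of the central windows of all 55219 regions called in 2 or more lists, 5.55% held the NF-κB consensus and 26.1% the AP-1 motif. The first TRAF2 window held neither, although the whole region held 2 AP-1 matches, and the second held 1 NF-κB match.

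TWEAK was followed by higher start-site acetylation at the adaptors TRAF1, TRAF2 and TRAF3 and at both ligases, while the kinase genes, TRAF5 and TRAF6 gave no call there. TRAF2 changed the most among the members. In MDA-MB-231 controls its start-site fold enrichment was 6.17 and 8.90 in the untreated lists and 21.9 and 23.9 in the TWEAK lists. Hs578T controls gave 7.02 and 5.60 untreated and 14.0 and 15.0 with TWEAK. The 8 Fn14 KO lists ranged from 6.19 to 7.90, all below every control TWEAK list. The share of all genes placed in this way was not counted, nor was it for the other members below. Among TWEAK-treated cells, Fn14 KO lists were lower than control lists over all genes too. The median log2 difference was -0.17 over all genes and -0.47 over the 10 members. At an unadjusted limma p under 0.05, 5813 of the 12226 genes differed. Over both lines the limma difference was 1.30 (log2 of fold enrichment plus 1, SE 0.12, adjusted p = 3.19e-05).

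TRAF3, the adaptor that links NIK to the ligases, was at 4.65 and 6.13 in untreated and at 10.3 and 10.5 in TWEAK-treated MDA-MB-231 controls. Hs578T controls went from 5.40 and 5.47 to 9.41 and 9.10. Fn14 KO lists lay between 4.54 and 5.69, within the range of the untreated controls or just below it. The difference with TWEAK was 0.76 (SE 0.09, limma adjusted p = 0.000138).

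TRAF1 has no RING domain and binds TRAF2 as a modulator. Its start-site value was 14.2 and 17.4 untreated and 24.7 and 26.0 with TWEAK in MDA-MB-231 controls. Its Hs578T values were 16.9 and 17.0 in untreated and 20.0 and 19.2 in TWEAK-treated controls, a smaller step. The Fn14 KO lists held 13.6 to 17.4 and so overlapped the untreated controls but no control TWEAK list. TRAF1 rose by 0.43 over both lines (SE 0.08, limma adjusted p = 0.00361). The peak that gave these values also widened, so height and width are not separate here. In replicate 1 of the MDA-MB-231 controls it ran from -3.27 to 4.89 kb around the start untreated and from -4.00 to 15.0 kb with TWEAK.

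BIRC3 was at 6.91 and 8.36 untreated and at 11.9 in both TWEAK lists in MDA-MB-231 controls. Hs578T controls held 9.16 and 7.83 untreated and 14.6 and 12.6 with TWEAK. Across the 8 Fn14 KO lists it ranged from 6.94 to 10.6, reaching above the untreated controls in Hs578T but below every control TWEAK list. BIRC3 rose by 0.60 (SE 0.08, limma adjusted p = 0.000378). BIRC2 had the highest start-site enrichment of the 10 genes in both lines. Its value was 27.6 and 29.4 untreated and 44.5 and 31.4 with TWEAK in MDA-MB-231 controls, where the TWEAK lists were far apart and the lower one was just above the untreated pair. In Hs578T controls it was 23.4 and 21.4 untreated and 31.5 and 35.1 with TWEAK. The Fn14 KO lists of BIRC2 held 21.0 to 24.9. BIRC2 rose by 0.47 (SE 0.10, limma adjusted p = 0.00711).

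**Figure D1:**
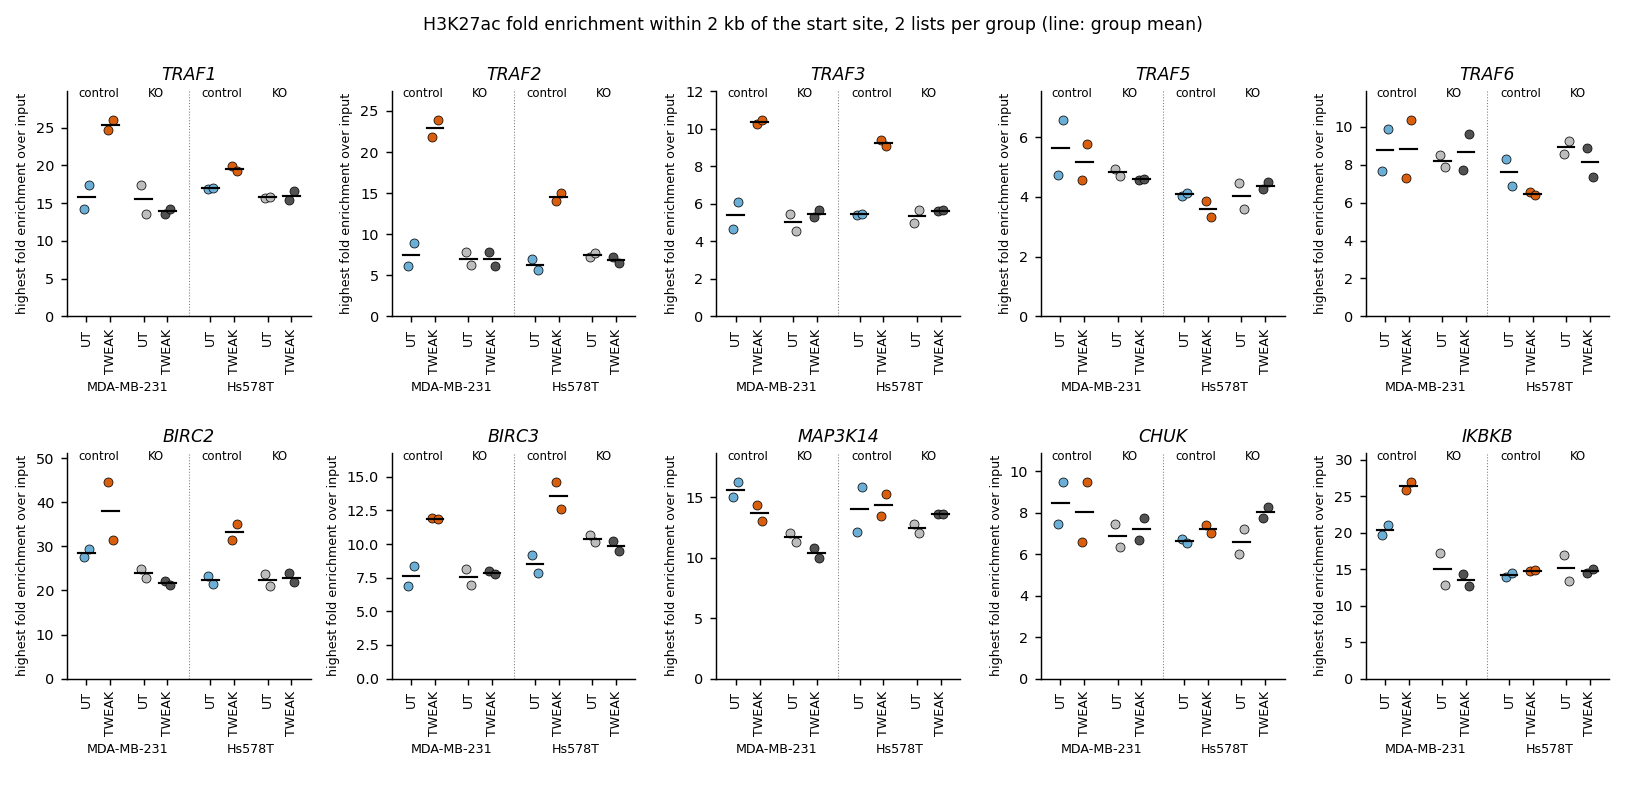
Highest H3K27ac fold enrichment over input of any peak touching the 2 kb on either side of the start site (y axis, linear, from 0) of each of the 10 genes in each of the 16 lists. The value is that of the whole peak. Lists are grouped along the x axis by line, genotype and treatment, with UT for untreated, KO for Fn14 KO, a point for each list and a bar for the mean of each pair. TRAF2, TRAF3, TRAF1, BIRC2 and BIRC3 are higher in the control TWEAK lists than in the untreated control lists of the same line. The Fn14 KO points of each of these genes stay below all 4 control TWEAK points. The share of all genes whose Fn14 KO points lie in this way was not counted.

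The kinase genes gave no call at their start sites. IKBKB was at 19.7 and 21.1 untreated and 25.9 and 26.9 with TWEAK in MDA-MB-231 controls. In Hs578T controls its 4 values lay between 13.9 and 14.9. The TWEAK lists were above the untreated lists in each line, yet the difference of 0.21 missed the threshold (SE 0.09, limma adjusted p = 0.137). MAP3K14, the gene for NIK, lay between 13.0 and 16.2 in the MDA-MB-231 control lists and between 12.1 and 15.8 in the Hs578T control lists. Its difference with TWEAK was -0.07 (limma adjusted p = 0.602). CHUK spanned 6.55 to 9.48 in the 8 control lists with a difference of 0.01 (limma adjusted p = 0.968). TRAF6 and TRAF5 differed by -0.10 and -0.13 (limma adjusted p = 0.603 and 0.480), and TRAF5 had the lowest or next-lowest start-site enrichment of the members in each control group.

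Altogether 5 of the 10 members were called higher with TWEAK and 0 lower, beside 11.3% of the 12226 genes tested that were called higher and 6.5% lower. The median difference was 0.32 over the 10 genes and 0.03 over all genes. All TWEAK lists stood above all untreated lists within each line for 6 members (the 5 called and IKBKB), beside 18.7% of all genes. Within MDA-MB-231, TRAF2 (1.50), TRAF3 (0.84), TRAF1 (0.65) and BIRC3 (0.58) were called higher (background 5.46%). Within Hs578T the called members were TRAF2 (1.09), TRAF3 (0.67), BIRC3 (0.62) and BIRC2 (0.55, background 3.51%). In the direct test of the line difference in the TWEAK effect, none of the 10 was called, beside 0.262% of all genes. TRAF1 came nearest, with a difference of -0.46 for Hs578T minus MDA-MB-231 (SE 0.16), an unadjusted p of 0.0139 and a limma adjusted p of 0.850. In this test 540 of the 12226 genes had an unadjusted limma p under 0.05.

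Without Fn14 no member was called with TWEAK. In Fn14 KO cells the start-site differences of the 10 genes lay between -0.08 and 0.15 on the log2 scale, and 0 of 10 were called by limma, beside 0.0654% of all genes in either direction. At an unadjusted p under 0.05 there were 0 members and 337 of the 12226 genes. The difference between the TWEAK effects of control and Fn14 KO cells was then tested directly. This test uses the same control lists as the comparison above and is not independent of it. Each effect is a difference within a genotype, with a median over all genes of 0.03 in control and -0.02 in Fn14 KO cells. TRAF2 differed by 1.35 (SE 0.16, limma adjusted p = 0.000731) and TRAF3 by 0.67 (SE 0.12, limma adjusted p = 0.00687). BIRC3 differed by 0.61 (SE 0.11, limma adjusted p = 0.00678), TRAF1 by 0.48 (SE 0.11, limma adjusted p = 0.0230) and BIRC2 by 0.51 (SE 0.14, limma adjusted p = 0.0453). Thus 5 of 10 members had a larger effect in control cells, beside 5.43% of all genes. Leaving out any single list except replicate 2 of MDA-MB-231 control TWEAK or of MDA-MB-231 Fn14 KO untreated ended the BIRC2 call (14 of 16 fits, adjusted p up to 0.113). The TRAF1 call ended in 6 of 16 fits (adjusted p up to 0.0644), those without MDA-MB-231 control TWEAK replicate 2, Hs578T control untreated replicate 2, Hs578T control TWEAK replicate 1, either Hs578T Fn14 KO untreated list or Hs578T Fn14 KO TWEAK replicate 1. IKBKB differed by 0.29 (limma adjusted p = 0.203).

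**Figure D2:**
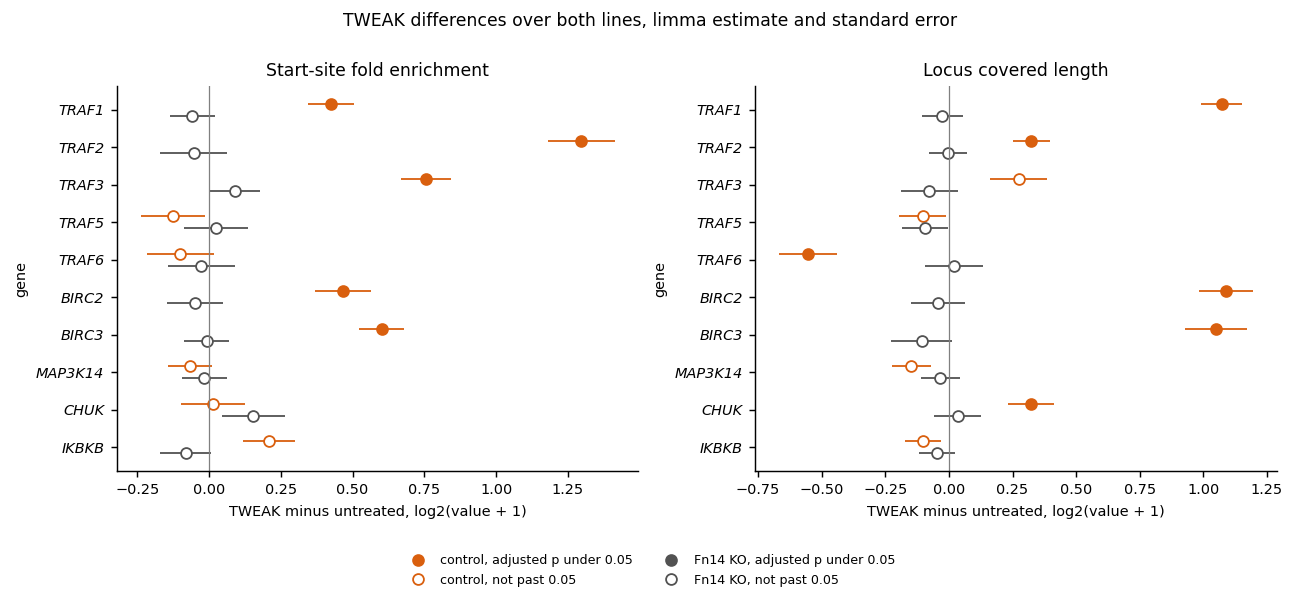
TWEAK minus untreated difference over both lines (x axis, log2 of the value plus 1) for each gene (y axis), for start-site fold enrichment (left) and length under peaks in the locus in kb (right), with orange points for control cells, grey points for Fn14 KO cells, filled points for a limma adjusted p under 0.05, and bars of 1 SE. The Fn14 KO points lie around 0 and none is filled, while 5 genes at the start site and 6 across the locus are filled in control cells, TRAF6 being the only one to the left of 0.

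The length of chromatin under peaks also changed, since peaks widened over the TRAF1 and BIRC3 genes. In untreated control cells the TRAF1 locus (126.8 kb) had 19.0 and 21.3 kb under peaks in MDA-MB-231 and 22.2 and 24.2 kb in Hs578T. With TWEAK it had 44.8 and 46.6 kb in MDA-MB-231 and 45.6 and 49.2 kb in Hs578T. The 8 Fn14 KO lists held 18.0 to 23.5 kb, within the range of the untreated controls or just below it. Most of the added length lay in the gene itself. Peaks covered 92.0 to 96.1% of the 26.8 kb TRAF1 gene body in the 4 control TWEAK lists and 17.9 to 25.3% in the other 12. Body cover was measured for the members only. The share of all genes separated in this way is therefore not known, here or for the body values below. The locus difference was 1.07 (log2 of kb plus 1, SE 0.08, limma adjusted p = 3.43e-06).

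The BIRC3 locus (121.9 kb) had 11.7 and 15.2 kb under peaks in untreated and 27.8 and 33.9 kb in TWEAK-treated MDA-MB-231 controls. The Hs578T controls had 13.1 and 13.9 kb untreated and 23.0 and 31.7 kb with TWEAK. Fn14 KO lists held 11.1 to 15.2 kb, well under every control TWEAK list. The share of all genes placed in this way was not counted for locus length. Among TWEAK-treated cells, 5563 of the 17908 genes differed in locus length between Fn14 KO and control lists at an unadjusted limma p under 0.05. BIRC3 rose by 1.05 (SE 0.12, limma adjusted p = 7.22e-05). The neighbouring BIRC2 locus, which shares most of these bases, rose by 1.09 (SE 0.11, limma adjusted p = 2.48e-05), from 10.8 to 13.6 kb in the untreated control lists to 21.3 to 31.4 kb with TWEAK. Within the gene bodies the spread was over BIRC3 and not over BIRC2, but part of the added locus length lay outside the BIRC3 body. That body held 5.91 kb under peaks in Hs578T control TWEAK list 1, against 2.01 kb in each untreated Hs578T control list. In the control TWEAK lists 26.9 to 60.6% of the BIRC3 body was covered against 5.91 to 16.9% in the other 12 lists, whereas the BIRC2 body was covered at 5.49 to 7.94% against 3.86 to 7.65%.

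TRAF2 gained less length than height. Its locus, which also holds the start sites of 8 other protein-coding genes, had 19.5 and 21.2 kb untreated and 27.4 and 25.1 kb with TWEAK in MDA-MB-231 controls. Hs578T controls had 23.2 and 21.3 kb untreated and 26.4 and 28.7 kb with TWEAK. The difference was 0.32 (SE 0.07, limma adjusted p = 0.00768), with 19.4 to 25.6 kb in Fn14 KO lists. The CHUK locus also rose by 0.32 (SE 0.09, limma adjusted p = 0.0259), although its start-site peak did not. It had 4.46 and 4.86 kb untreated and 6.63 and 5.48 kb with TWEAK in MDA-MB-231 controls, and 4.74 and 5.02 kb untreated and 6.61 and 6.21 kb with TWEAK in Hs578T controls. The CHUK call was lost without any 1 of the control lists other than replicate 2 of untreated or of TWEAK-treated MDA-MB-231 (6 of 16 fits, adjusted p up to 0.12). TRAF3 rose at its start site but its locus difference of 0.27 missed the threshold (SE 0.11, limma adjusted p = 0.109), which it passed after quantile normalization (0.31, limma adjusted p = 0.00793).

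TRAF6 was the member whose locus lost length. It had 4.94 and 6.81 kb untreated and 3.89 and 3.67 kb with TWEAK in MDA-MB-231 controls. In Hs578T controls it had 7.71 and 7.31 kb untreated and 4.62 and 4.64 kb with TWEAK. The Fn14 KO lists held 4.20 to 8.11 kb and overlapped both. TRAF6 fell by 0.55 (SE 0.11, limma adjusted p = 0.00446). The loss lay in a region inside the neighbouring gene PRR5L, 53.2 kb downstream of the TRAF6 start (chr11:36451830-36457068), where peaks covered 2.78 to 4.75 kb in the untreated and 1.22 to 2.12 kb in the TWEAK lists of control cells. With an extension of 25 kb, which leaves this region out, the TRAF6 difference was -0.02 (limma adjusted p = 0.931).

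In total 5 members were called higher and 1 lower by locus length, beside 6.85% and 11.1% of the 17908 genes tested. The median was 0.30 over the members and -0.05 over all genes. Like TRAF3, MAP3K14, IKBKB and TRAF5 gave no call, and the MAP3K14 body was covered at 12.0 to 17.4% in the control TWEAK lists and at 16.5 to 28.5% in the other 12. In Fn14 KO cells 0 of 10 members and 0.0% of all genes were called by limma, with 0 members and 318 genes at an unadjusted p under 0.05. The TWEAK effect on locus length differed between control and Fn14 KO cells for BIRC3 (1.16, SE 0.17, limma adjusted p = 0.00171), BIRC2 (1.13, SE 0.15, limma adjusted p = 0.00104) and TRAF1 (1.10, SE 0.11, limma adjusted p = 0.000199), which is 3 of 10 beside 2.7% of all genes. TRAF6 and TRAF2 differed by -0.57 and 0.33 without passing (limma adjusted p = 0.0575 and 0.0881).

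**Figure D3:**
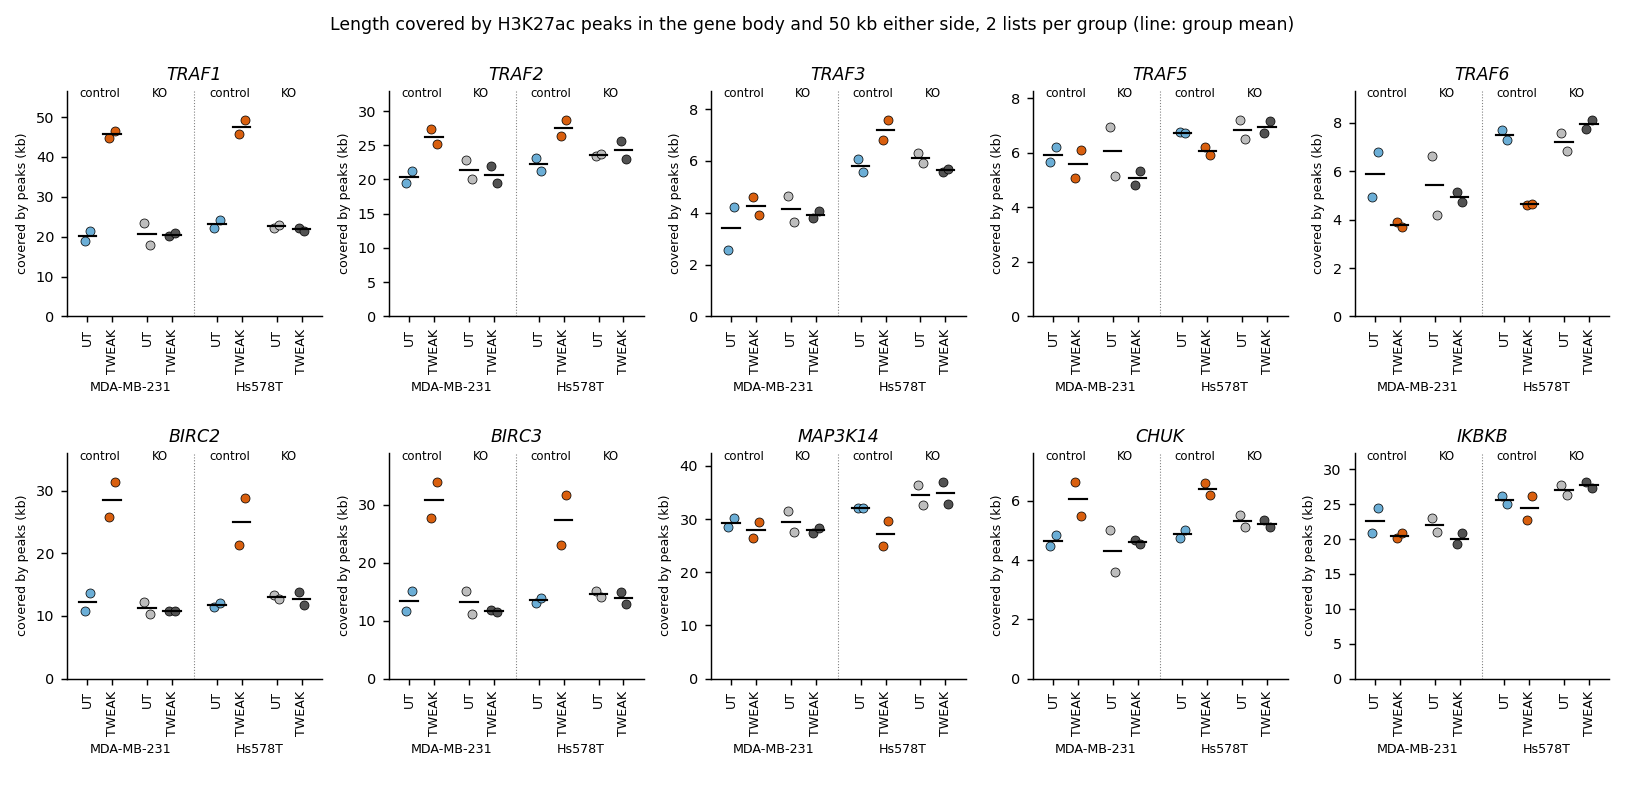
Length under H3K27ac peaks in kb (y axis, linear, from 0) in the body of each of the 10 genes and 50 kb on either side, in each of the 16 lists, grouped along the x axis by line, genotype and treatment, with UT for untreated, KO for Fn14 KO, a point for each list and a bar for the mean of each pair. The TRAF1, BIRC2 and BIRC3 loci lie at about the same height in 12 lists and far above it in the 4 control TWEAK lists. The share of all genes with that pattern was not counted. The TRAF6 locus is lower in the control TWEAK lists than in the untreated control lists of the same line.

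The loci held 65 distinct regions (overlapping peaks merged, 1 bp being enough, and called in 2 or more lists), of which 39 had a peak in all 16 lists. A region counted as gained in a line if it was called in each TWEAK list and missing from each untreated list. The controls of MDA-MB-231 gained 5 regions (7.69%, beside 5.58% of all regions), and those of Hs578T gained 7 (10.8%, beside 5.09%). Lost regions numbered 1 (1.54%, beside 4.49%) and 4 (6.15%, beside 4.65%). In Fn14 KO cells 0 and 1 were gained (beside 0.321% and 1.05%) and 2 and 0 were lost (beside 1.35% and 0.829%). These shares carry no test.

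The regions gained in both lines were 3 of the 65, beside 2.48% of all regions, and this count carries no test. The first and tallest was the TRAF2 region at chr9:136931243-136933293, 49.3 kb downstream of the TRAF2 start and nearest to the start of FBXW5, whose central sequence is the first of the TRAF2 pair printed above. Its fold enrichment was 7.16 and 7.29 in MDA-MB-231 and 5.03 and 4.45 in Hs578T controls with TWEAK, and the only other list with a peak was 1 TWEAK list of MDA-MB-231 Fn14 KO cells, at 2.74. The adjacent region, chr9:136934310-136935119, reached 3.39 and 2.69 in MDA-MB-231 and 2.89 and 3.06 in Hs578T and had no peak in any Fn14 KO list. The last was chr10:100163481-100164582 in the CHUK locus, within the gene ERLIN1, at 3.39 and 3.36 in MDA-MB-231 and 3.21 and 2.94 in Hs578T, likewise without a peak in Fn14 KO cells.

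Gains called in 1 line clustered in the 3′ part of BIRC3. The regions chr11:102327544-102328727 and chr11:102330099-102332593 were gained in Hs578T and chr11:102333159-102335633 in MDA-MB-231, all within the stretch over which the BIRC3 peaks widened. Further gains of 1 line were chr11:102267693-102268739 upstream of BIRC3 in MDA-MB-231, and chr14:102818984-102819789 inside TRAF3 and chr10:100148460-100149434 near ERLIN1 in Hs578T. Losses were seen in Hs578T at chr11:102279577-102280381 upstream of BIRC3, chr14:102931113-102932049 near AMN, chr17:45277483-45280246 in MAP3K14 and chr8:42304783-42306214 in IKBKB, and in MDA-MB-231 at chr8:42325473-42326863 in IKBKB. None of the 65 regions was present in every list of one cell line and absent from every list of the other.

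Among the 39 regions with a peak in all lists, 13 were higher and 3 lower with TWEAK in control cells, beside 26.3% and 16.2% of the 28337 regions of this kind. The count of 13 is not far above its background and was not tested against it. The single regions below were named after their values were seen. Their limma differences and adjusted p-values describe those regions and are no evidence about the members as a set. In Fn14 KO cells 0 were called in either direction (0.0%). The TRAF2 locus held a pair of strong regions. One lay 15.9 kb inside the gene (chr9:136897768-136905749) and had 22.2 and 22.4 untreated and 41.0 and 40.4 with TWEAK in MDA-MB-231 controls. In Hs578T controls it had 22.0 and 19.5 untreated and 38.1 and 39.5 with TWEAK. It rose by 0.86 (SE 0.09, limma adjusted p = 7.62e-14), and the 8 Fn14 KO lists spanned 17.0 to 22.5. The region at the TRAF2 start (chr9:136881220-136888113) rose by 1.23 (limma adjusted p = 5.28e-18).

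Upstream of BIRC3 there were 2 regions of this kind. The farther one, chr11:102292371-102295064, had 3.58 and 3.46 untreated and 7.72 and 7.37 with TWEAK in MDA-MB-231 controls, and 4.12 and 3.98 untreated and 6.76 and 7.54 with TWEAK in Hs578T controls. It rose by 0.80 (SE 0.10, limma adjusted p = 7.37e-11). The nearer one, chr11:102305511-102307826, rose by 0.86 (SE 0.11, limma adjusted p = 3.29e-10). Upstream of TRAF1, in an intron of the complement gene C5, chr9:120934700-120936779 had 9.11 and 10.8 untreated and 17.3 and 17.1 with TWEAK in MDA-MB-231 controls and 9.22 and 10.1 untreated and 13.0 and 12.2 with TWEAK in Hs578T controls. It rose by 0.54 (SE 0.10, limma adjusted p = 3.26e-06). IKBKB, which gave no call at its start, held a region overlapping an exon inside the gene (chr8:42288642-42302495) that rose by 0.41 (SE 0.09, limma adjusted p = 0.00012). MAP3K14 held a region inside the gene (chr17:45292692-45297332) that fell by 0.28 (SE 0.10, limma adjusted p = 0.0196). Next to TRAF1, a region in PHF19 (chr9:120890765-120894103) fell by 0.40 (SE 0.10, limma adjusted p = 0.000538). In the direct test of control against Fn14 KO cells, 11 of the 39 regions had a larger TWEAK effect in control cells and 1 a smaller one, beside 20.5% and 8.5% of all such regions. The count of 11 is likewise not far above its background and was not tested against it.

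**Figure D4:**
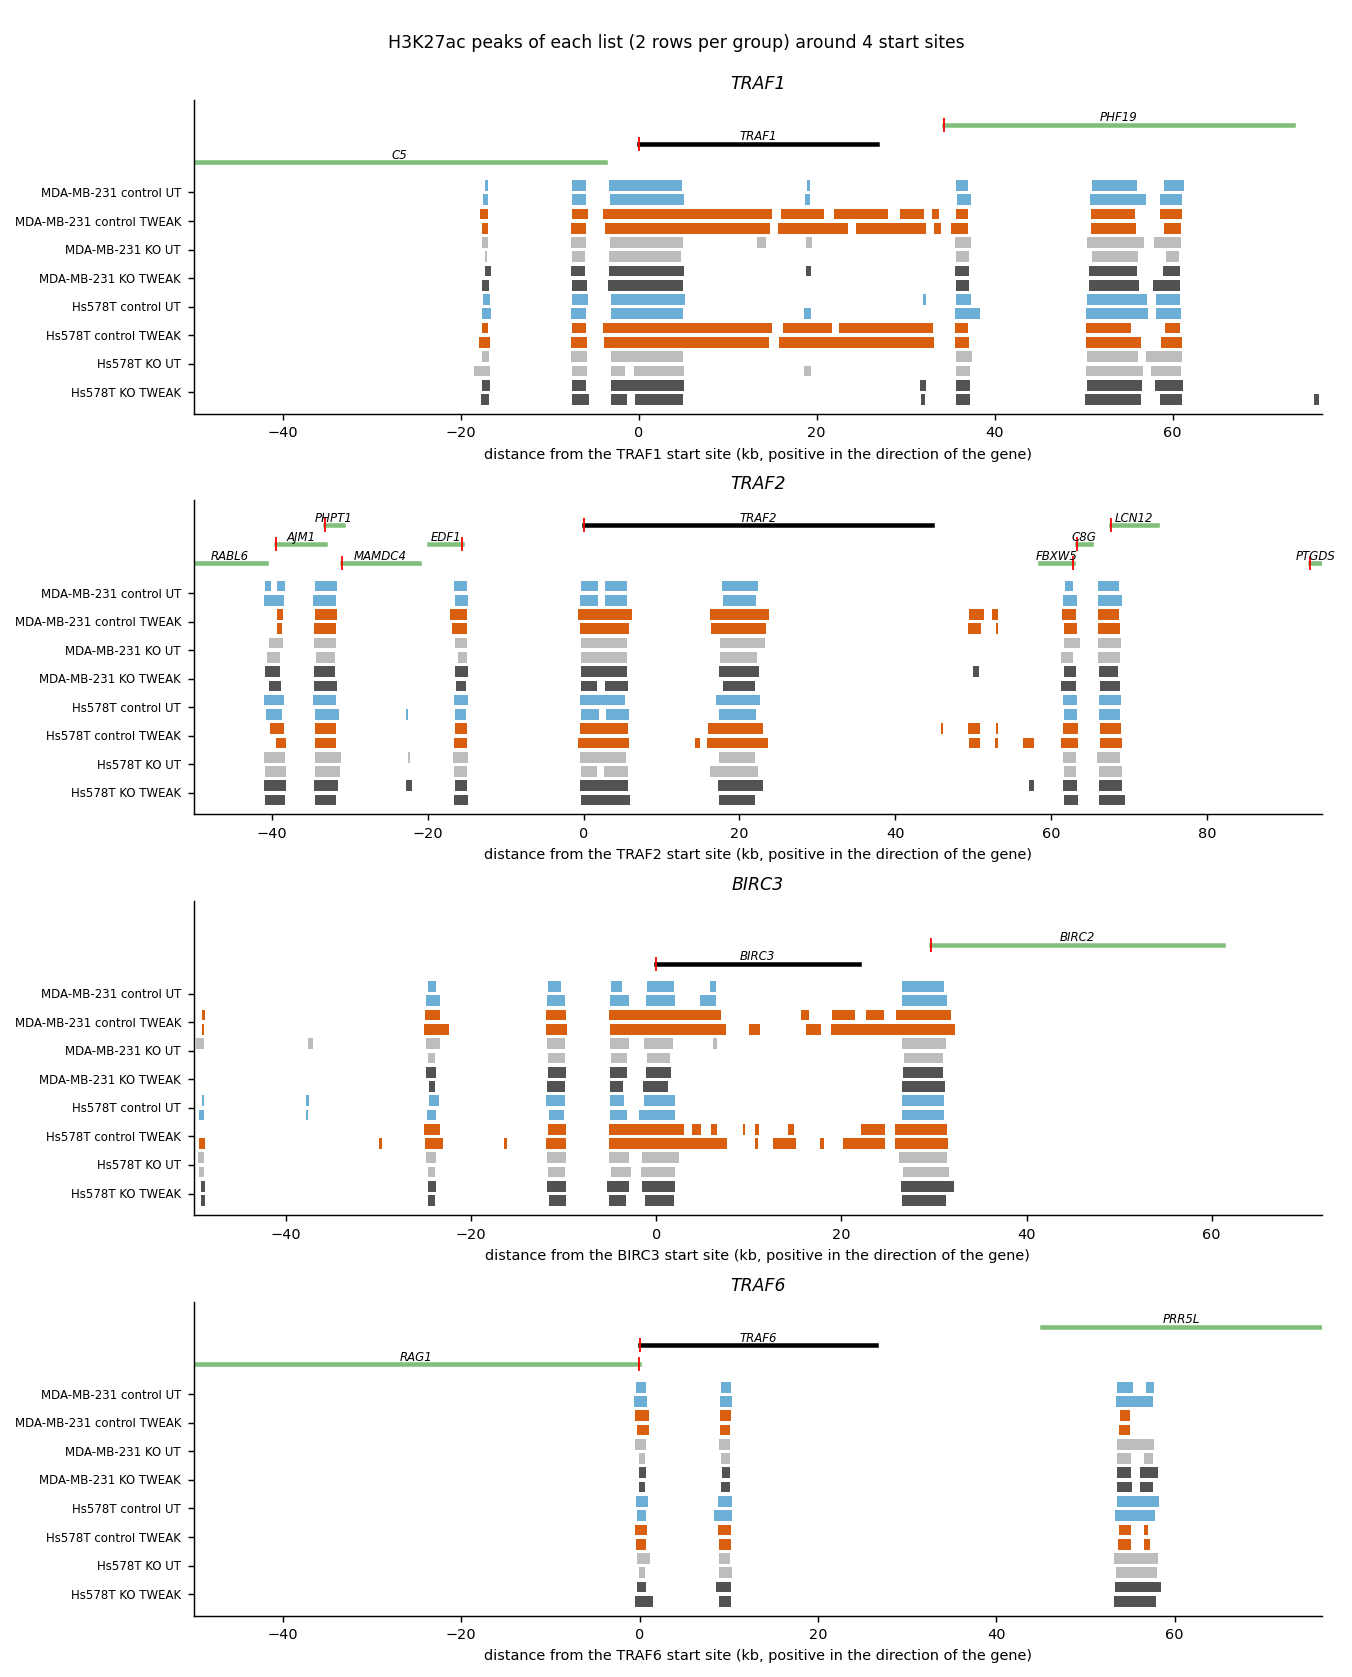
Peaks of each of the 16 lists (2 rows for each group, coloured by treatment and genotype) against distance in kb from the start site (x axis, positive in the direction of the gene) for the TRAF1, TRAF2, BIRC3 and TRAF6 loci, with the gene in black, neighbouring protein-coding genes in green and start sites as red ticks. In the orange rows (control TWEAK) peaks run over the TRAF1 body and along BIRC3 towards BIRC2, new peaks stand past the 3′ end of TRAF2, and the peak in PRR5L next to TRAF6 is narrower than in the untreated rows.

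The highest peak of the MAP3K14 locus was not at MAP3K14. It lay at the start of the neighbouring formin gene FMNL1 (chr17:45219286-45232591) and rose by 0.82 with TWEAK in control cells (SE 0.09, limma adjusted p = 3.78e-13), while the start site of MAP3K14 gave -0.07. Taken as the highest fold enrichment anywhere in the locus, 6 of 10 members (TRAF2, TRAF3, BIRC2, BIRC3, MAP3K14 and IKBKB) were called higher, beside 25.4% of all genes, and MAP3K14 was among them only through this peak. BIRC2 and BIRC3 were read from the same peak.

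Length under peaks within 2 kb of the start site gave BIRC3 as higher by 0.21 (limma adjusted p = 0.039) and TRAF5 as lower by 0.25 (limma adjusted p = 0.0203) with TWEAK in control cells, beside 1.16% and 2.17% of all genes. This window holds 4.001 kb at most, and peaks filled it at TRAF1 in 14 of 16 lists.

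No member was called over both lines for the loss of Fn14 by itself. In untreated cells 0 of 10 members differed between Fn14 KO and control cells at the start site (beside 0.409% of all genes higher and 9.43% lower), and 0 of 10 by locus length (beside 0.318% and 0.257%). MAP3K14 came nearest at the start site, with a difference of -0.27 (limma adjusted p = 0.0507). At an unadjusted limma p under 0.05 there were 1 of 10 members and 3425 of the 12226 genes. Within MDA-MB-231, where 38.1% of all genes were called lower and the median over all genes was -0.29, MAP3K14 differed by -0.39 (limma adjusted p = 0.0168) and IKBKB by -0.43 (limma adjusted p = 0.0213). Neither was called after quantile normalization of the lists (limma adjusted p = 0.978 and 0.970), under which TRAF1 was instead called higher by 0.36 (limma adjusted p = 0.0232), so no direction is given for MAP3K14, IKBKB or TRAF1.

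Between the lines, 3 of 10 members differed at the start site, beside 41.0% of all genes. BIRC3 was higher in Hs578T by 0.26 (limma adjusted p = 0.00352), with 6.91 to 11.9 in the MDA-MB-231 and 7.83 to 14.6 in the Hs578T lists. IKBKB was lower in Hs578T by 0.29 (limma adjusted p = 0.00362) and TRAF5 by 0.27 (limma adjusted p = 0.0185). The exact permutation test gave IKBKB an adjusted p of 0.156, and the TRAF5 call was lost with a replicate block and above the pooled median q (limma adjusted p = 0.375 and 0.249). In the IKBKB case the control lists of MDA-MB-231 (19.7 to 26.9) stood apart, whereas its Fn14 KO lists (12.8 to 17.3) overlapped the Hs578T lists (13.4 to 16.9). By locus length 6 members were called longer in Hs578T, beside 46.7% of all genes, whose median difference was 0.16. With that shift removed by quantile normalization, TRAF3 (0.38) and TRAF6 (0.20) remained longer in Hs578T, BIRC2 (-0.14) and TRAF1 (-0.09) were called shorter, and the other members were not called. In untreated control cells the order of start-site enrichment ran from BIRC2 (28.5 ± 1.31 in MDA-MB-231 and 22.4 ± 1.39 in Hs578T, SD, n = 2) down to TRAF3 (5.39 ± 1.04) in MDA-MB-231 and TRAF5 (4.09 ± 0.078) in Hs578T. Most neighbours in that order, such as TRAF1 and MAP3K14 or BIRC3 and TRAF2 in MDA-MB-231, did not differ beyond their spread.

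Of 28 further genes of the NF-κB pathway that were not chosen as members, 26 could be tested at the start site. With TWEAK in control cells 13 were called higher and 0 lower (beside 11.3% and 6.5% of all genes), with a median of 0.30, and in Fn14 KO cells 0 were called in either direction (beside 0.0654%). The difference between the genotypes was called for 8 (beside 5.43%). TANK, which binds TRAF proteins and the kinase TBK1, rose by 0.94 (limma adjusted p = 0.000339). The inhibitors NFKBIE, NFKBIA and NFKBIB rose by 0.85, 0.35 and 0.30 (limma adjusted p = 0.000326, 0.00126 and 0.0104). TNFAIP3, the deubiquitinase A20, rose by 0.56 (limma adjusted p = 0.00204), TBK1 by 0.33 (limma adjusted p = 0.0038) and NFKB2, the gene for p100, by 0.45 (limma adjusted p = 0.00734). IKBKG, the scaffold of the IKK complex, rose by 0.41 (limma adjusted p = 0.00173), a value that is uncertain because a near-identical partial copy can share its reads. The receptor gene TNFRSF12A itself differed by 0.05 (limma adjusted p = 0.673). By locus length 7 of 28 were called higher and 3 lower (LTBR, TNFRSF1A and IKBKG), beside 6.85% and 11.1% of all genes, so the lower count is near the background. TNFAIP3 rose by 1.70 in locus length in control cells (limma adjusted p = 3.16e-06), and in Fn14 KO cells 0 of 28 were called (beside 0.0%).

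The genes on other chromosomes whose start-site enrichment ran most like that of the 3 members called in the control minus Fn14 KO difference of locus length are given by Pearson's r over the 16 lists, as a description, since the lists share lines and treatments. For TRAF1 these were LARP6 and LRRC49, which share 1 peak (r = 0.961), and TNIP1 (r = 0.946). For BIRC2 they were MEPE (r = 0.935) and EXTL2 and SLC30A7, which again share 1 peak (r = 0.929). For BIRC3 they were PLXNB2 (r = 0.933), ENKUR (r = 0.93) and NFE2L3 (r = 0.924).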

How the data were processed

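H3K27ac ChIP-seq was performed on 16 samples of 2 cell lines. Per the study's methods, reads were trimmed, mapped to hg38 with Bowtie2 and peaks were called per sample by MACS2 with input subtracted, after which blacklisted regions were removed. Versions and thresholds are not given in the sources used here. The deposited lists hold a score, a fold enrichment (a ratio over input), a −log10 p-value and a −log10 q-value for each peak. Their 9-column layout is that of broad calling, in which the fold enrichment is a mean over the peak, so a value can shift when peaks merge or split. Reads were not used here and depth is unknown.

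Start sites and gene bodies were taken from GENCODE 44. Fold enrichment or kb under peaks was tested as log2(x + 1) with limma 3.58.1 in R 4.3.3 (1 mean per group over all 16 lists, 8 residual degrees of freedom, trended variance), for genes with a peak in at least 2 lists, and p-values were adjusted over all genes tested by Benjamini-Hochberg at 0.05. A fold change on this scale understates that of low values. The limma test of regions present in all lists was added after the data were seen. The code was tested on simulated data. One gene of the marker list is not reported here. Named genes were all members, every region gained or lost in control cells, up to 8 pathway genes by adjusted p and the 3 genes most like each member called in the control minus Fn14 KO difference of locus length; other regions were named after their values were seen. The members and lists were chosen with earlier results of these data known. Alternatives were equal peak numbers, a stricter q, other windows, filters and pseudocounts, quantile normalization, a replicate block, an exact permutation test and leaving out each list. Lists with the same replicate number did not deviate together.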

Additional observations from a re-analysis of the deposited data

Results flagged for a closer look

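The TWEAK effect differed between control and Fn14 KO cells at 8 values, each by the direct limma test of the difference over both lines (log2 of the value plus 1). For start-site fold enrichment the differences were 1.35 for TRAF2, 0.67 for TRAF3, 0.61 for BIRC3, 0.51 for BIRC2 and 0.48 for TRAF1. For locus length they were 1.16 for BIRC3, 1.13 for BIRC2 and 1.10 for TRAF1, and since the BIRC2 and BIRC3 loci share 92.2 kb these are largely 1 observation. No member was called for a line difference in its TWEAK effect.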

How the results depend on the processing

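With 2 lists per group the exact permutation test could not go below 0.0556 within a genotype. After adjustment it called 0 members in each TWEAK comparison (start site 5 of 10 by limma, locus length 6). The same held for each genotype difference (5 and 3 by limma). It also called 0 of all genes tested in these comparisons, so this result does not set the members apart from other genes. The 0.0556 floor does not apply to the genotype differences. There the unadjusted exact p at the start site was 0.0185 to 0.0478 for the 5 genes called by limma. Adjusted over the 12226 genes, the exact permutation p of these genes was 0.237 to 0.28. Since limma picked them from the same lists, the range is no separate evidence, and the share of all genes within it was not counted. By limma the start-site TWEAK calls of TRAF1, TRAF3, BIRC2 and BIRC3 held in 25 of 25 alternatives and that of TRAF2 in 24, missing with peaks at or above the pooled median q (adjusted p = 0.125). The locus calls of TRAF1, TRAF2, BIRC2 and BIRC3 held in 24 of 24, those of CHUK in 17 and of TRAF6 in 22, both lost above the pooled median q (adjusted p = 0.706 and 0.137). The start-site genotype difference gave 2 calls above the pooled median q, 3 with no filter on low values and 3 to 6 leaving out 1 list. It fell to 3 without Hs578T control untreated list 2, control TWEAK list 1, Fn14 KO untreated list 1 or 2, or Fn14 KO TWEAK list 1. The locus difference gave 5 calls with equal peak numbers and 6 under quantile normalization (5 higher and 1 lower, against 3 and 0).

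Untreated Fn14 KO against control cells (0 calls at the start site) gave 1 with equal peak numbers, 1 above the pooled median q and 0 to 2 leaving out 1 list (2 without MDA-MB-231 Fn14 KO untreated list 1, 1 without Hs578T control untreated list 1). The line comparison of locus length (6 calls) gave 2 above the pooled median q and 3 with smaller windows, and under quantile normalization TRAF2 and MAP3K14 reversed to -0.073 and -0.0849, neither past the threshold. The pathway count of 13 was 8 above the pooled median q. The number of regions gained or lost in MDA-MB-231 Fn14 KO cells (2) was 1 above the pooled median q, 0 at 50% overlap and 2 to 6 leaving out 1 list. In Hs578T Fn14 KO cells (1) it was 0 with equal peak numbers, 3 at 50% overlap and 2 to 6 leaving out 1 list, and in Hs578T controls (11) it was 5 with equal peak numbers and 3 above the pooled median q. The cause of these shifts was not tested. Same-numbered lists correlated at r = -0.102 to 0.112, so the numbers do not pair them. With a replicate block the members called were 5 at the start site and 6 by locus length with TWEAK, 4 and 3 for the genotype difference (BIRC2 at the start site lost, adjusted p = 0.0511) and 2 by locus length for the line. Read depth is unknown, and peak lists do not show signal under the calling threshold.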
